A study of Mus musculus with 16 samples.

Results

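The genes of the synaptic vesicle and of its release machinery were followed through 16 libraries of cultured mouse neurons. Members were the protein-coding genes whose symbols belong to the synaptotagmin (Syt), synapsin (Syn), Sv2, synaptogyrin (Syngr), Rab3, Vamp, syntaxin (Stx), syntaxin-binding (Stxbp), complexin (Cplx), Rims and Unc13 families, with Snap25, Syp, Bsn and Pclo. This rule reads symbols and no measured value, and it found 76 of the 45724 genes listed. By role they comprise 15 genes of the vesicle membrane and its associated proteins, 17 synaptotagmins, 7 vesicular SNAREs, 16 target SNAREs, 11 SNARE regulators and 10 genes of the active zone. Of the 76, 43 were listed by hand as known for transmitter release in neurons. The other 33 were listed as serving general membrane traffic or having a less certain role there. This division was not tested, and the role of single members such as Syt6 may be less sure.

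The neurons were primary cultures from the brain of C57BL/6 mice on postnatal day 0. They received NP24, Tβ10 or Tβ4, which the labels call peptides derived from the subcommissural organ, a gland of the brain's ventricular lining, or the vehicle DPBS (Dulbecco's phosphate-buffered saline, the control). Each group had 4 libraries of total RNA, and no dose or exposure time is given in the labels used here. The study asked which transcripts differ between neurons given a peptide and neurons given DPBS.

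Synaptic vesicles store transmitter in the axon terminal. Synapsins tether them in a reserve cluster, Rab3 proteins and the active zone scaffold of Rims, Unc13, Bassoon (Bsn) and Piccolo (Pclo) dock and prime them, and fusion is driven when vesicular Vamp2 zips together with Stx1a and Snap25 on the plasma membrane. Complexins clamp and assist this SNARE assembly, and calcium entering the terminal triggers it through synaptotagmins such as Syt1. Neurons of the newborn brain express much of this set before mature synapses form.

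Values are normalized counts, that is, reads per gene divided by a factor for each library, and 1 read was worth between 0.536 and 1.71 of them. Library depth, as reads in genes, was lowest in Tβ10 library 4 (11642242) and highest in Tβ10 library 1 (38254320). The counts cover whole gene spans, introns included, on either strand: in 1199 of 1199 cases where a well-covered gene lay inside an intron of another, the outer gene held at least as many reads. A value therefore mixes mature and unspliced RNA, and a gene's level is given per kb of its span. The 8 neuron markers that are not members were present in every group, with summed levels of 62735 to 64362 in NP24, 55489 to 68571 in Tβ10, 48933 to 60120 in Tβ4 and 53543 to 58699 in control libraries. Markers of other cells were also present, since the summed astrocyte level was 8569.5 to 10355.5 and that of microglia 1817 to 2199.7 in controls. Cldn5 was at 0 in all NP24 and all Tβ10 libraries, Gjb6 in all NP24 and Lum in all control libraries. In such mixed cultures, fewer cells of a type and less RNA per cell cannot be told apart.

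Each of the 76 members had reads in these mixed cultures, though at very different levels. Per kb of span, the highest control levels were those of Vamp2 among vesicular SNAREs (927.6 normalized counts per kb), Rab3a among vesicle proteins (374), Syt4 among synaptotagmins (285.5), Cplx2 among SNARE regulators (180.6) and Unc13a in the active zone (94.5). Vamp2 encodes the vesicle SNARE cut by tetanus toxin, and Syt4 is a synaptotagmin found on dense-core and other vesicles. Syp, the classic vesicle membrane marker, followed Rab3a among vesicle proteins at 143.9 per kb, ahead of Sv2a at 114.7 per kb. Among synaptotagmins, Syt5 (120.7 per kb) and Syt11 (119.2 per kb) lay next to each other below Syt4. The calcium sensor Syt1 had 21.2 per kb, although its 10892 ± 924 normalized counts in controls (SD, n = 4) over a span of 513.3 kb were the most of any member.

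At the other end, 5 members stayed under the minimum of 10 normalized counts in 4 libraries in the fit of all 16. They were Vamp5, Vamp8, Syt8, Cplx3 and Cplx4, with 17 (Syt8) to 119 reads (Vamp8) over all libraries. Cplx3 and Cplx4 are the complexins of retinal ribbon synapses, and Vamp8 serves secretion in blood and gland cells. Syt15 also missed the minimum in the comparisons of NP24 and of Tβ10 with control. The members that met it numbered 70 for NP24, 70 for Tβ10 and 71 for Tβ4 against control, and 71 for peptides against each other.

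**Figure D1:**
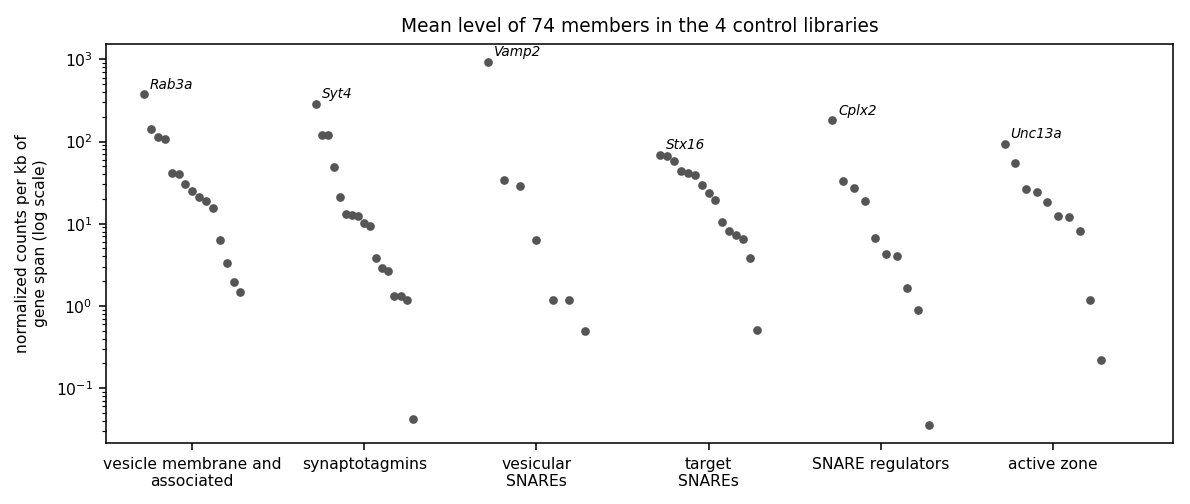
Mean level of 74 of the 76 members in the 4 control libraries, in normalized counts per kb of gene span on a log scale, arranged by role, with 1 point per member. Vamp2 stands highest at 927.6 and Rab3a next at 374, while Cplx4 and Syt8, both under the low-value minimum, are the lowest.

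With NP24, 7 members changed against control, 6 higher and 1 lower. The rises were of 1.32 to 1.5-fold and lay in separate role classes: the synaptotagmins Syt6 and Syt4, the vesicle proteins Syn1 and Sv2c, and the syntaxins Stx18 and Stx3. Of these, 3 (Syt6, Syn1 and Sv2c) are among the 41 tested members listed as known for transmitter release, with 0 lower. The 29 other members tested had 3 higher and 1 lower. Stxbp2, a syntaxin-binding protein best known from granule release in immune cells, fell. Over all 21774 genes tested, 1.16% were called higher and 1.47% lower, 2.63% in all (limma, Benjamini-Hochberg adjusted p under 0.05), so for members the shares were 6 and 1 of 70. The median difference of the 70 members was 0.09 on the log2 scale, and 48 of 70 values were positive, against a median of -0.004 over all genes tested. The 8 neuron markers outside the families gave 8 of 8 values positive and a median of 0.22, none called by limma. None of the SNARE proteins that form the core fusion complex was among the 7.

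Syn1, on chromosome X (20860511 to 20921004, minus strand, GRCm38), encodes synapsin I, which binds vesicles to actin and to each other. It had 3411, 3305, 3311 and 3289 normalized counts in the NP24 libraries, against 2432, 2629, 2640.1 and 2381 in the control libraries. Every NP24 library lay above every control library, and the NP24 values spread less than those of any other group. The means were 3329 ± 55.5 with NP24 and 2521 ± 133 in control (SD, n = 4 each), a log2 difference of 0.40 ± 0.08 (SE, 95% interval 0.23 to 0.58, limma adjusted p = 0.0131). The other synapsins did not pass: Syn2 gave 0.05 and Syn3 0.04, both with intervals that include 0.

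Sv2c, a vesicle glycoprotein with marked expression in the basal ganglia, had 854, 744, 918 and 933 normalized counts with NP24, against 502, 591, 534 and 709 in control. Again no library of one group reached into the other. The log2 difference was 0.57 ± 0.13 (SE, limma adjusted p = 0.0192). Its relatives Sv2a, the target of the antiepileptic drug levetiracetam, and Sv2b gave 0.27 (adjusted p = 0.208) and 0.12 (adjusted p = 0.734) and did not pass. The membrane markers Syp (0.21), Syngr1 (0.22) and Rab3a (0.07) had positive values that did not pass either.

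Syt6, a synaptotagmin known from the acrosome reaction of sperm as well as from brain, showed the smallest p of all members. Its values were 1209, 1163, 1537 and 1544 in NP24 libraries, against 823, 872, 948 and 965 in control libraries, again with no overlap. The means of 1363 ± 206 with NP24 and 902 ± 66.2 in control (SD, n = 4 each) differ by 0.59 ± 0.12 on the log2 scale (SE, limma adjusted p = 0.00783).

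Syt4 had 3917, 4021, 4088 and 3397 normalized counts with NP24, against 2736, 3118, 2771 and 2339 in control. The difference of 0.50 ± 0.10 (SE, limma adjusted p = 0.008) passed in 8 of 8 fits that left out 1 library, more than any other call of this comparison. The gene model Gm26658 overlaps 73.85% of the Syt4 span, so part of these reads is shared, and its own difference was 0.22 (adjusted p = 0.303). The sensor of fast release, Syt1, gave 0.17 (adjusted p = 0.398) and was not called.

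The start regions of the pair with the smallest p outside Syt4 are shown because they differ in which known promoter elements they hold. Both are the 250 bases before a RefSeq transcription start (GRCm38.p6), 5′ to 3′ in the direction of the gene, with motif matches in capitals.
Syt6, chr3:103574995-103575244, plus strand, the most upstream of its listed starts: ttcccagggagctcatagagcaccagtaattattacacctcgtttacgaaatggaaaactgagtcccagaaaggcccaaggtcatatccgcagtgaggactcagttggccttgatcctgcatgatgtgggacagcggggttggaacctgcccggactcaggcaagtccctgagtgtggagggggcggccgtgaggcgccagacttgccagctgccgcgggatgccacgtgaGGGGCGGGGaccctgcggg
Syn1, chrX:20920919-20921168, minus strand: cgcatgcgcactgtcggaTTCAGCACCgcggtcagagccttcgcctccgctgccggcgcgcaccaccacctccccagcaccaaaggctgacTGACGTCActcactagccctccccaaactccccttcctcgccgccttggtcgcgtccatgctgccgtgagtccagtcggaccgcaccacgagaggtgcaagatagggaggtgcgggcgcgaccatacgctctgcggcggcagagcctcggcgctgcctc
The Syt6 capitals mark a GC box, the letters GGGGCGGGG. Those of Syn1 mark TTCAGCACC, the left part of the RE1 element to which the neuronal gene repressor REST binds, and TGACGTCA, the cAMP response element.

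Both strands of 32851 such windows were searched, and 58 members had 74 windows on the chromosomes searched, some of them overlapping starts of 1 gene. The RE1 part was found in 0.301% of all windows and in 1 of the 74, that of Syn1. The cAMP response element was in 1.55% of all windows and in 2 of the 74, of Stxbp3 and Syn1. The GC box, common in CG-rich start regions, was in 10.4% of all windows and 26 of the 74 (35.1%). Syn1 and Stxbp3 had unlike differences with NP24 (0.40, called, and a value of -0.31 that did not pass). A match describes letters and not a site that was bound.

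Among target SNAREs, Stx18 and Stx3 were higher with NP24. Stx18, a syntaxin of the endoplasmic reticulum that takes up vesicles returning from the Golgi, had 1512, 1271, 1456 and 1272 normalized counts with NP24, against 931, 974.7, 1011 and 1228.5 in control. The log2 difference was 0.41 ± 0.11 (SE, limma adjusted p = 0.0468). Stx18 reaches into Nsg1 over 0.58% of its span. Stx3, a plasma membrane syntaxin of ribbon synapses and epithelia, had 369, 410.4, 443 and 486 with NP24, against 288, 296, 332 and 245 in control (0.56 ± 0.15, SE, limma adjusted p = 0.0493). Neither is a subunit of the standard fusion complex of central synapses, whose genes gave 0.01 for Snap25, 0.10 for Stx1a and 0.14 for Vamp2, none called.

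Stxbp2 was the one member called lower, with 274, 358, 259.7 and 251 normalized counts in NP24 libraries, against 425, 395, 411 and 442 in control libraries. The groups did not overlap, and the difference was -0.56 ± 0.15 (SE, limma adjusted p = 0.0476). Microglia markers were lower as well: their summed level was 1506 to 1628 with NP24, against 1817 to 2199.7 in control, and 4 of 7 tested were called lower, with a median of -1.41. Most of that sum is Cx3cr1, which was not lower, at 1362 with NP24 and 1304 in control. With Tβ4 the same markers went the other way, 9 of 10 values being positive (median 0.72, none called by limma), while Stxbp2 gave -0.80. Fibroblast markers were also lower with NP24, at 1127 to 1313 against 1703 to 2328, with 5 of 6 tested called. Unc13d (Munc13-4), a further gene of immune granule release, gave -1.46 (adjusted p = 0.29) at 6.54 ± 3.76 normalized counts with NP24 and 18.5 ± 7.32 in control (SD, n = 4 each). The part of these cells in the Stxbp2 value was not tested.

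The other members with the smallest p on the lower side did not pass: Stx5a, a Golgi syntaxin (-0.24), Syt12 (-0.92) and Unc13c (-0.57). Of the 10 active zone genes limma and edgeR called 0 and DESeq2 1 (Rims4). DESeq2 called 9 members in this comparison, the 7 of limma with Rims4 and Rab3c, the last named after its values were seen. It called 1167 of all genes, where limma called 572. Rims4 was the closest of them in limma, at 0.36 (adjusted p = 0.0609) with groups that did not overlap. Bsn gave 0.14, Pclo 0.18, Rims1 0.07 and Unc13a, the main priming factor of excitatory terminals, -0.08. SNARE regulators with no call gave 0.32 for Cplx1 (adjusted p = 0.204) and 0.17 for Cplx2. Groups did not overlap for 10 members that were higher and 3 that were lower with NP24, where 5.07% and 4.77% of all genes tested behaved so.

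The NP24 calls differed in how often they held. Of the 8 fits that left out 1 library, Syt4 passed in 8, Syt6 and Syn1 in 6, Sv2c in 4, Stx18 in 3, Stxbp2 in 1 and Stx3 in 0, and without NP24 library 3 or without control library 1 the count of members fell to 1, while the count over all genes was 206 and 106 in place of 572. No call remained when the spread of all 16 libraries was used (adjusted p 0.0522 to 0.384) or when the share of reads in mitochondrial ribosomal RNA was a covariate (adjusted p = 0.991 for each). Over all genes, 120 were called in the first of these fits and 0 in the second, so the loss was not confined to members. That share was 5.98 to 8.12% with NP24 and 9.32 to 14.2% in control, so it and the peptide cannot be told apart. In the authors' deposited table, 1 member had an adjusted p under 0.05 for NP24, Sv2c at 0.56 (adjusted p = 0.0107). That table gave an adjusted p for 74 members, and 409 of all genes were under 0.05.

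**Figure D2:**
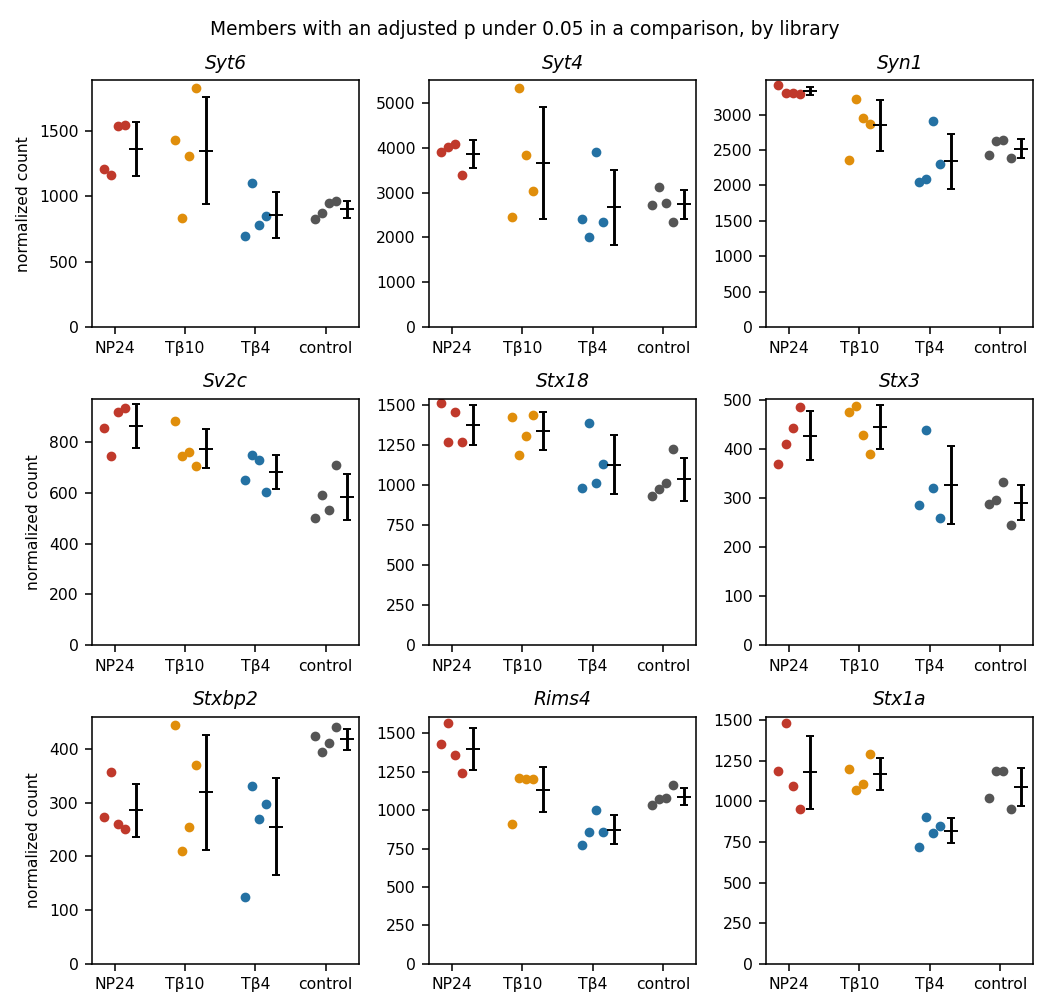
Normalized counts of the 9 members with an adjusted p under 0.05 in at least 1 comparison, 1 point per library, with the mean and SD of 4 libraries beside each group (NP24, Tβ10, Tβ4, control). All NP24 libraries lie above all control libraries for Syt6, Syt4, Syn1, Sv2c, Stx18 and Stx3 and below them for Stxbp2, and above all Tβ4 libraries for Rims4, Syn1 and Stx1a.

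With Tβ10, no member passed against control. The median of 70 members was 0.02, with 38 values above 0, against -0.005 for all genes. limma called 0 members, 6 had an unadjusted p under 0.05, edgeR called 0 and DESeq2 1 (Stx3). Over all genes limma called 0.633%, edgeR 0.587% and DESeq2 1.74%, and 11.2% had an unadjusted p under 0.05. The comparison shares its control libraries with that of NP24, so the values are set side by side without a test of likeness. Stx3 had 475, 488, 429 and 390.5 normalized counts with Tβ10, against 288, 296, 332 and 245 in control, and the groups did not overlap. Of the members, 2 lay wholly higher (Stx3 and Rab3c) and 1 wholly lower (Stx4a) with Tβ10, as did 2.96% and 3.95% of all genes tested. Rab3c is named here after its values were seen. The Stx3 difference was 0.62 ± 0.15 (SE, limma adjusted p = 0.0727), and the authors' deposited table lists 0.62 with an adjusted p of 0.0382. Stx3 was the 1 member under 0.05 in that table, where 263 of all genes were.

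The remaining members with the smallest p on the higher side of Tβ10 were Stx18 (0.37, adjusted p = 0.202), Sv2c (0.41, adjusted p = 0.215), Syt6 (0.53, adjusted p = 0.215) and Syt4 (0.37, adjusted p = 0.447). Syt4 varied most, with 2463, 5335, 3835 and 3035.5 in Tβ10 libraries, against 2339 to 3118 in control. Its Tβ10 values reach from inside the control range to well above it. Without Tβ10 library 2, which had 835 normalized counts of Syt6 where the other Tβ10 libraries had 1306 to 1831.5, Syt6 was called. That fit called 315 of all genes, against 139 with all libraries, so the gain was not confined to Syt6. On the lower side none passed: Stxbp2 gave -0.45, the plasma membrane syntaxin Stx4a -0.29, Syt12 -0.63, Syt2, a calcium sensor of fast inhibitory terminals, -0.21 and Sv2b -0.25.

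Genes of the core machinery did not pass with Tβ10. Values were 0.12 for Syt1, 0.08 for Snap25, -0.02 for Vamp2, and 0.10 for Stx1a, each with a 95% interval that includes 0. For Vamp2 that interval ran from -0.33 to 0.28, so a change of either sign within those bounds cannot be told from none at this spread. Synapsin I (Syn1) had 2847 ± 361 normalized counts with Tβ10 and 2521 ± 133 in control (SD, n = 4 each), a value of 0.17 (adjusted p = 0.612).

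With Tβ4, no member passed against control, and no gene of 22205 did (0.0% called). Here 8 of 71 members had an unadjusted p under 0.05, as did 7.06% of all genes. Neither edgeR nor DESeq2 called a member (0 each), at 0.0% and 0.129% of all genes. The authors' deposited table for Tβ4 lists 163 of all genes with an adjusted p under 0.05, and 0 members. Values below control were the more frequent: 48 of 71 were negative, with a median of -0.08 against -0.003 for all genes. Among members known for transmitter release, 35 of 41 were negative (median -0.12), while the other members had a median of 0.03. Such a count describes these members, since their values share the same 8 libraries and are not independent.

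**Figure D3:**
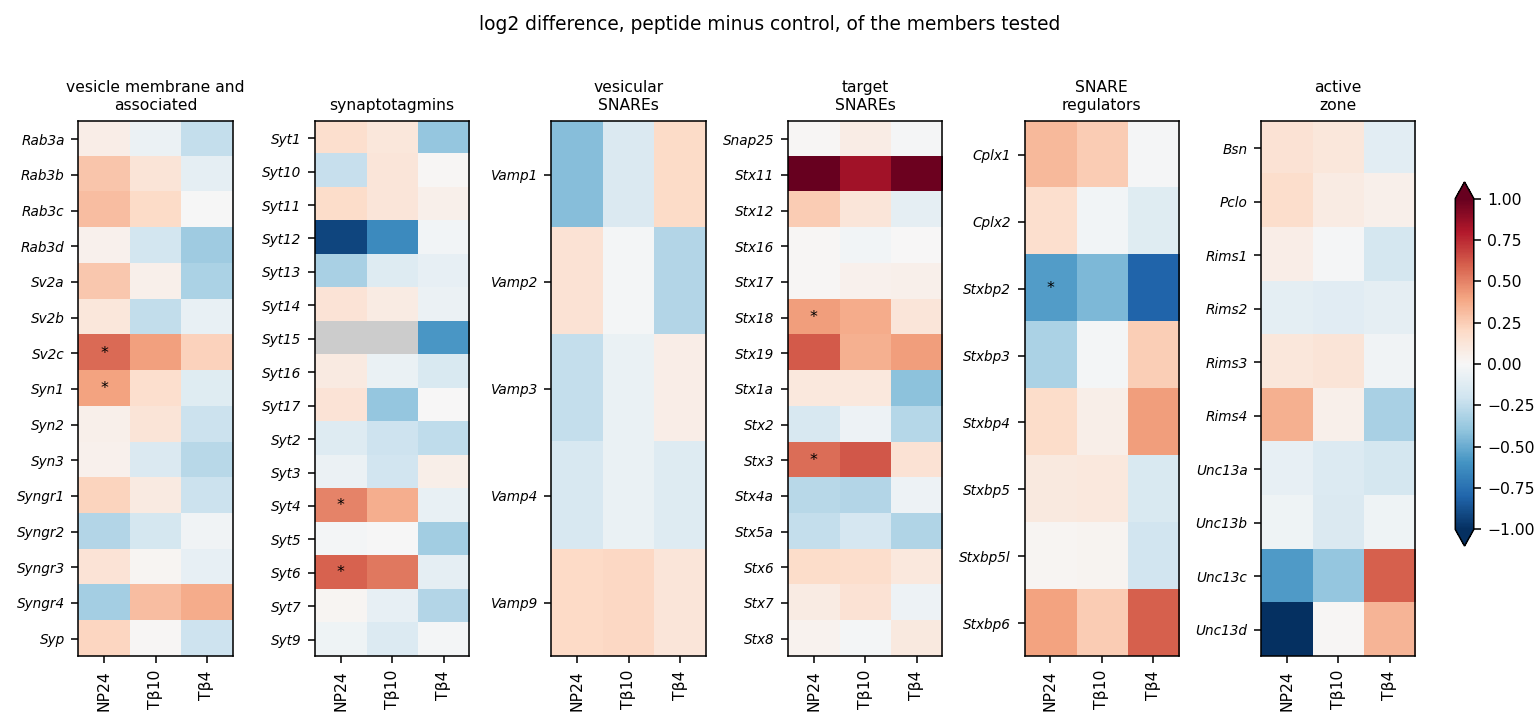
Log2 difference, peptide minus control, of the members tested, 2 left out, by role, in columns for NP24, Tβ10 and Tβ4, on a colour scale that runs from -1 (blue) to 1 (red). Stars mark the 7 members with an adjusted p under 0.05, all in the NP24 column. Grey cells in the NP24 and Tβ10 columns mark Syt15, which was under the low-value minimum in those comparisons. Most vesicle and synaptotagmin cells of the Tβ4 column are blue.

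Stx1a, the syntaxin of the core fusion complex, had the smallest p on the lower side. It had 718, 903, 807 and 848 normalized counts with Tβ4, against 1024, 1187, 1190.3 and 952 in control. All Tβ4 libraries lay below all control libraries, by a difference of -0.41 ± 0.13 (SE, 95% interval -0.69 to -0.13) that did not pass (limma adjusted p = 0.486). Rims4, a short Rim protein of the active zone, had 773, 856, 999 and 859 with Tβ4, against 1035, 1076, 1077.5 and 1167 in control (-0.32, adjusted p = 0.611). Stxbp2 gave -0.80 (adjusted p = 0.493), Stx5a -0.30 and Sv2a -0.32 (adjusted p = 0.692). For Stx1a, Stxbp2, Rims4 and Stx5a the groups did not overlap, and 2.17% of all genes tested lay wholly lower with Tβ4.

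On the higher side, Stxbp4, known from insulin-driven transport in fat and muscle, had 961, 928, 734 and 869.5 normalized counts with Tβ4, against 548, 686, 646 and 729 in control (0.42 ± 0.14, SE, limma adjusted p = 0.509). It was the only member wholly higher with Tβ4, as were 2.26% of all genes tested. Stxbp6 (amisyn, which binds syntaxin in place of Vamp2) gave 0.60, Sv2c 0.23, Stxbp3 0.25 and Stx11, an immune cell syntaxin with 28.1 ± 20.2 normalized counts with Tβ4 and 13.1 ± 7.09 in control (SD, n = 4 each), 0.98. None of these passed. Markers of some, but not all, non-neuronal cells were high in Tβ4 libraries. The fibroblast sum was 2390 to 4358 with Tβ4 and 1703 to 2328 in control, and the endothelial and pericyte sum 413 to 1077 and 190.1 to 326. Astrocyte markers summed to 10796 to 14666 with Tβ4 and 8569.5 to 10355.5 in control, with 8 of 9 values positive (median 0.49). Oligodendrocyte lineage markers did not share this, at 9941 to 14166 with Tβ4 and 11346 to 13902 in control, with 6 of 10 values negative (median -0.08). Radial glia markers summed to 3878 to 8589 and 4868.5 to 5902, with 5 of 7 values positive (median 0.23). For microglia 9 of 10 values were positive (median 0.72), and the 8 neuron markers had a median of -0.04. limma called 0 markers of these lists. Their part in the member values was not tested.

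In some libraries the members' values were ordered by gene span, most widely in Tβ4 library 2. That library had high values for members with long spans, 11235 normalized counts of Rims1 where the other Tβ4 libraries had 4076 to 4947, and 15283 of Syt1 where they had 6348 to 7059. In the same library, members with short spans were low, 777 for Rab3a, 1336 for Syp and 1419 for Cplx2, below all other Tβ4 libraries. Against the control mean, the median of members under 20 kb (17 genes) was -0.43 there, that of members of 20 to 100 kb (33 genes) -0.09 and that of members over 100 kb (20 genes) 0.51. Tβ4 library 3 showed the opposite order, with 0.16, -0.07 and -0.31. In Tβ4 libraries 1 and 4 all 3 medians were negative, from -0.36 to -0.09. Smaller spreads in the same order as in library 2 were seen in NP24 library 4 (-0.22, 0.05 and 0.20) and Tβ10 library 1 (-0.15, -0.02 and 0.21), and the opposite order in Tβ10 library 2 (0.20, 0.09 and -0.10). The medians of single control libraries stayed between -0.08 and 0.10 in all span classes. Each control library is part of the mean it was set against, which draws its median toward 0, so this range is not a like measure for peptide libraries. These bounds were chosen after the values were seen. The slope of level on gene span, 1 value per library and used elsewhere as a covariate, followed the same order. It was highest of all libraries in Tβ4 library 2 (0.623) and lowest in Tβ4 library 3 (0.407). NP24 library 4 had 0.545, and control libraries had 0.436 to 0.475. The order is therefore described for members only, and whether it is particular to them was not tested.

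The Tβ4 test was also run without library 2, which is singled out here because of the values just given. In that fit, 5 members were called lower with Tβ4, namely Rims1, Syt1, Syn3, Stxbp5l (tomosyn-2, which competes with Vamp2 for syntaxin) and Stxbp2, where 1.01% of all genes were called lower. Each of the 5 had its highest Tβ4 value in library 2. Leaving that library out lowers their Tβ4 means by construction, so these calls are no separate support for a decrease. Of the 5, 4 are long genes, with spans of 270.0 kb for Stxbp5l to 519.7 kb for Rims1. Syn3 also holds Timp3 and other genes inside its span, whose own counts equal 26.47% of its reads.

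NP24 and Tβ4 were compared directly in 1 fit of all 16 libraries, and 3 members differed, all higher with NP24. They were Rims4, Syn1 and Stx1a, that is, an active zone protein, a vesicle tether and a fusion syntaxin. limma called 0.442% of 24232 genes higher and 1.65% lower with NP24 than with Tβ4, 2.09% in all, against 3 and 0 of 71 members. Groups did not overlap for 5 members higher (Rims4, Syt6, Stx1a, Syngr1 and Syn1) and 3 lower (Vamp3, Unc13d and Syt12), at 2.89% and 4.65% of all genes. The median of the 71 members was 0.19, with 50 positive, and -0.006 over all genes. Among the 41 known for transmitter release 33 were positive, with a median of 0.29, and the 8 neuron markers had 8 positive values with a median of 0.22.

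Rims4 (chromosome 2, 163859751 to 163918683, minus strand, GRCm38) had 1432, 1569, 1359 and 1241 normalized counts with NP24, against 773, 856, 999 and 859 with Tβ4. The lowest NP24 library stood above the highest Tβ4 library, and the control libraries (1035 to 1167) lay between. The means were 1400.2 ± 137 with NP24 and 872 ± 93.8 with Tβ4 (SD, n = 4 each), a difference of 0.68 ± 0.12 (SE, 95% interval 0.43 to 0.93, limma adjusted p = 0.00445). It passed in 8 of 8 fits that left out 1 library. No other gene overlaps its span in the annotation. Against control it gave 0.36 with NP24 (adjusted p = 0.0609) and -0.32 with Tβ4 (adjusted p = 0.611), neither called.

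Syn1 had 2055, 2094, 2908 and 2298.5 normalized counts with Tβ4, below the 3289 to 3411 of NP24, with a difference of 0.52 ± 0.12 (SE, limma adjusted p = 0.0223). Stx1a had 1189, 1484, 1096 and 951 with NP24, against 718, 903, 807 and 848 with Tβ4 (0.51 ± 0.13, SE, limma adjusted p = 0.047). Each of these passed in 2 of 8 fits that left out 1 library. Close to the threshold lay Sv2a (0.59, adjusted p = 0.0519), Syt6 (0.68, adjusted p = 0.056) and Syngr1 (0.44, adjusted p = 0.0953), named here after their values were seen. Unc13d (-1.80, adjusted p = 0.0971) and Stxbp3 (-0.56, adjusted p = 0.144) led the lower side without passing.

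The number called between NP24 and Tβ4 moved with single libraries, from 1 to 13 members, and was 13 without Tβ4 library 2, when 5.8% of all genes were called. With the mitochondrial ribosomal share as a covariate it was 0 (7 of all genes), and the median of members became -0.01. That share was 5.98 to 8.12% with NP24 and 8.25 to 24.3% with Tβ4. Microglia markers summed to 1506 to 1628 with NP24 and 1737 to 2925 with Tβ4, and fibroblast markers to 1127 to 1313 and 2390 to 4358. Their part in the 3 calls was not tested.

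Between Tβ4 and Tβ10, a pair of related actin-binding thymosin peptides, no member passed. limma called 0 of 71 members, 13 had an unadjusted p under 0.05, edgeR called 0 and DESeq2 2 (Stx1a and Syt6). Of all genes, 1.35% passed in limma, 1.31% in edgeR and 3.54% in DESeq2, and 12.4% had an unadjusted p under 0.05. Stx1a had 718, 903, 807 and 848 normalized counts with Tβ4, against 1200.0, 1068, 1109.7 and 1293 with Tβ10, with no overlap (-0.51, 95% interval -0.79 to -0.24, limma adjusted p = 0.0593). It was the only member wholly lower with Tβ4 than with Tβ10, and Stxbp4 the only one wholly higher, where 2.57% and 4.02% of all genes were. Syt6 gave -0.62 (adjusted p = 0.0999). On the higher side Stxbp4 gave 0.36 (adjusted p = 0.154) and Unc13c 0.99 (adjusted p = 0.395). Tβ4 library 1 had 699.9 normalized counts of Unc13c where the other Tβ4 libraries had 76.1 to 127, and without it the difference was 0.28.

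Between NP24 and Tβ10, limma, edgeR and DESeq2 called 0 members and 0.0% of all genes, and 2 members and 2.44% of all genes had an unadjusted p under 0.05. Groups did not overlap for 4 members higher (Rims4, Sv2b, Stxbp4 and Syn1; 0.755% of all genes) and 1 lower (Unc13d; 1.35%). The smallest p values on the higher side belonged to Rims4 (0.31, 95% interval 0.06 to 0.56) and Sv2b (0.36, -0.01 to 0.74). On the lower side they belonged to Unc13d (-1.47) and Stxbp3 (-0.29), all with an adjusted p of 1.0. For Syt6, Syt4, Sv2c and Stx3, the means with NP24 were 1363, 3856, 862 and 427 normalized counts and those with Tβ10 1351, 3667, 774 and 446. Their 95% intervals still allow differences in either direction, from -0.33 to 0.44 on the log2 scale for Syt6.

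A wider list of 51 presynaptic genes outside the families, all tested, gave 3 higher and 1 lower call with NP24 against control, where 1.16% and 1.47% of all genes were called. Its median there was 0.03, with 30 of 51 values positive. Napb, an adaptor that recycles SNARE complexes, had 1566 ± 169.5 normalized counts with NP24 and 1139.5 ± 90.5 in control (SD, n = 4 each), a difference of 0.46 (limma adjusted p = 0.0222). Snap47, a relative of Snap25, gave 0.40 (adjusted p = 0.0259) and Rph3a (rabphilin, a Rab3 effector) 0.38 (adjusted p = 0.0394). Bin1 (amphiphysin 2), which bends membranes in endocytosis, fell by 0.36 (adjusted p = 0.0433).

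With Tβ10 and with Tβ4 the wider list had no limma call against control. With Tβ10, 27 of its 51 values were positive (median 0.03), and with Tβ4 40 of 51 were negative (median -0.12). The smallest p for Tβ10 belonged to Napb (0.51, adjusted p = 0.0797). For Tβ4 the smallest on the lower side belonged to Bin1 (-0.44, adjusted p = 0.442) and Ppfia3 (-0.37, adjusted p = 0.458). Between NP24 and Tβ4, Rph3a was higher with NP24, at 1452 ± 61.7 normalized counts against 917 ± 146 with Tβ4 (SD, n = 4 each; 0.67, limma adjusted p = 0.00445). It was the only one of the 51 called there, and 45 of the 51 values were positive with a median of 0.19. Between Tβ4 and Tβ10 the values closest to the threshold were Napb (-0.50, adjusted p = 0.0602) and Rph3a (-0.43, adjusted p = 0.0771).

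Overlapping genes touch some of the members named. The counts of genes inside the span equalled 41.35% of the reads of Syn2, 31.66% of Pclo, 27.59% of Vamp1 and 18.44% of Syt16. Such counts can include reads of the outer gene itself, so these shares can overstate the part of the inner genes. Gm14703 covers 14.55% of the Syp span. Vamp3 lies inside Camta1, Stx19 inside Arl13b and Syngr2 inside Gm20708, so their values hold reads of the larger gene or share theirs with it. For the called members Syt6, Sv2c and Syn1 the reads of genes inside came to 1.04%, 4.98% and 1.61%. Stx3, Stxbp2, Rims4 and Stx1a have no overlapping gene in the annotation.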

How the data were processed

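Total RNA of primary cultured neurons was purified with RNeasy Micro columns and made into libraries with the SMARTer Stranded Total RNA-Seq v2 kit, per the labels. The submitters' processing notes name FastQC, HISAT or HISAT2, featureCounts, DESeq2 and GRCm38, with versions, annotation and strand setting not given in the sources used here. The deposited library values are signal: the authors had scaled each library's read counts by its size factor. They were the same in the 3 tables to within 4.9e-07, and 100% of nonzero values were whole reads at a tolerance of 0.01. The authors' deposited log2 fold changes, their standard errors, scores (Wald statistics) and p-values are used only where their table is named.

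Of 1199 genes with at least 1000 reads inside an intron of another gene, sharing no exon base with it, 568 lay on the same strand and 631 on the opposite one, and the outer gene held at least as many reads in each case. Reads therefore appear to have been counted over whole spans, without strand, for every overlapping gene. Spans came from GENCODE M21, in which 45596 gene identifiers were found without their version and 45045 with it.

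limma-trend (limma 3.58.1, R 4.3.3) was fitted to log2(value + 1). Genes needed 10 or more normalized counts in 4 or more of the libraries in question. Adjustment over all genes tested was by Benjamini-Hochberg, with a threshold of 0.05. Fold changes on this scale understate those of low genes. Each peptide was compared with control in a fit of 8 libraries, and peptides with each other in 1 fit of 16. The procedure was tested on simulated data. Recovered reads were also tested with DESeq2 1.42.0 and edgeR 4.0.16. Further alternatives were library-size and TMM scaling, pseudocounts of 0.1 and 10, no low-value filter, another estimate of the spread, replicate number as a block, mitochondrial ribosomal RNA share or the slope of level on gene span as a covariate, and leaving out each library.

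The labels do not say whether replicates are separate cultures, so p-values measure only the spread between these samples. Libraries of a group differed beyond counting error (chi-square per degree of freedom of at least 9.47). A few genes of the lists are not reported here by name. The members and lists were chosen with earlier results of these data known. Named in each comparison with control are the members that passed, or else the 5 with the smallest p per direction (2 between peptides), with a fixed core of the fusion machinery and the highest member of each role.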

Additional observations from a re-analysis of the deposited data

Results flagged for a closer look

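In 36 named members, the 4 libraries of each group were looked at for 1 library far from the other 3 (Dixon's criterion at the 95% level, on the gap to the nearest library as a share of the group's range), which chance alone gives in about 1 in 20 groups. Of 144 such groups, 15 were marked. Tβ4 library 2 was the high one for Syt1 (15283), Rims1 (11235), Pclo (11576) and Snap25 (3979 normalized counts). Tβ4 library 1 was high for Unc13c (699.9) and Syt12 (129), and Tβ4 library 3 for Vamp2 (3827). Among Tβ10 libraries, library 4 was high for Bsn (7398), while library 1 was low for Rims4 (913), library 2 for Unc13c (45.5) and library 3 for Stx11 (11.7). NP24 library 2 was low for Stxbp6 (418). In control, library 1 was low for Pclo (7888) and library 4 for Vamp2 (3202) and Stx11 (2.61 normalized counts).

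The effects of 2 peptides differed by a test of the difference itself for 3 members, all higher with NP24 than with Tβ4: Rims4 by 0.68, Syn1 by 0.52 and Stx1a by 0.51 on the log2 scale.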

How the results depend on the processing

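For NP24 against control, where 7 members passed, 4 passed in edgeR, 4 with a pseudocount of 0.1, 4 without the low-value filter, 4 with the replicate block, 11 with the span slope as a covariate, and 0 both with the spread of all 16 libraries and with the mitochondrial ribosomal RNA share as a covariate. Leaving out 1 library gave 1 to 7, with 1 without NP24 library 3 and 1 without control library 1, 3 without control library 2 or 3, and 4 without NP24 library 1. Calls over all genes moved too, from 572 in the main fit to 518 in edgeR and 482 with the pseudocount of 0.1. They were 365 without the filter, 477 with the block, 1073 with the span slope, 120 with the spread of all 16 libraries and 0 with the ribosomal share. Without the libraries just named they were 206, 106, 243, 424 and 292, in that order. For Tβ10 against control (0), DESeq2 and library-size scaling gave 1 each, the span slope 3 and leaving out 1 library 0 to 1, the 1 (Syt6) without Tβ10 library 2. All-gene calls for Tβ10 were 139 in the main fit, 420 in DESeq2 and 122 with library-size scaling. The span slope gave 590 of them and leaving out Tβ10 library 2 gave 315. For Tβ4 against control (0), leaving out 1 library gave 0 to 5, with 5 without Tβ4 library 2. That last fit called 354 of all genes, where the main fit called 0. Between NP24 and Tβ4 (3), DESeq2 and library-size scaling gave 7 each, TMM scaling 5, the 8 libraries of the pair alone 1, the ribosomal share 0 and the span slope 11. Leaving out 1 library there gave 1 to 13: 13 without Tβ4 library 2, 7 without Tβ4 library 3, and 1 without Tβ4 library 1 or 4 or NP24 library 1, 2 or 3. All-gene calls of this pair were 507 in the main fit, 1212 in DESeq2, 631 with library-size scaling and 480 with TMM scaling. They were 109 in the pair alone, 7 with the ribosomal share and 1590 with the span slope. Leaving out Tβ4 library 2 gave 1392, Tβ4 library 3 gave 645, and the fits with 1 member gave 104 to 339. Between Tβ4 and Tβ10 (0), DESeq2 gave 2, library-size scaling 4, the span slope 9 and leaving out 1 library 0 to 8, with 8 without Tβ4 library 2 and 1 without Tβ10 library 2. There the main fit called 326 of all genes, DESeq2 799, library-size scaling 607 and the span slope 1217. Without Tβ4 library 2 the all-gene count was 1052, and without Tβ10 library 2 it was 231. With the ribosomal share as a covariate, 3 values changed sign: Syt6 (-0.009) and Sv2b (0.031) for Tβ10 against control and Unc13c (-0.25) for Tβ4 against Tβ10; the cause was not tested. Library-size scaling shifted the median of all genes to -0.18 between Tβ4 and Tβ10 and to 0.13 between NP24 and Tβ4. Replicate numbers did not pair the libraries, since same-numbered libraries gave correlations of -0.70 to 0.27; the block gave 4 calls for NP24 against control, 2 between NP24 and Tβ4 and 0 in the other 4 comparisons. Genes of few reads such as Unc13d, Stx11 and Syngr4 are limited by depth, and the members under the minimum could not be tested.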
